A study of Mus musculus with 8 samples.

Results

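The genes described here are 7 subunit genes of the GABA-A receptor, *Gabra2*, *Gabra3*, *Gabra4*, *Gabra5*, *Gabrb1*, *Gabrb2* and *Gabrd*, out of 45706 genes measured by bulk RNA-seq. They were listed by name, with no threshold on a measured value but with earlier results of these data known, and all 7 passed the filter on low counts that left 14962 genes for testing. Hippocampal neurons of C57/Bl6 wild-type mice were cultured from embryonic day 18 and treated for 4 h with control vehicle (H2O) or with 1 µM melanin-concentrating hormone (MCH), a neuropeptide of the lateral hypothalamus, between 12 and 14 days in vitro. Each treatment had 4 wells, numbered as replicates 1 to 4, and the study made 2 independent cultures with 2 wells of each treatment. Neither the study nor its sample labels say which replicate came from which culture, so *P* values measure only the spread between these wells. The labels carry a model tag for Alzheimer's disease, whereas the genotype entry of both groups is wild type.

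GABA-A receptors are chloride channels gated by GABA, the main inhibitory transmitter of the adult brain. Each channel is a pentamer, most often of alpha and beta subunits with a gamma or a delta subunit, and GABA binds where a beta subunit meets an alpha subunit. The alpha subunit largely sets where a receptor sits and how it responds to drugs. In the hippocampus, receptors with alpha2 are mostly synaptic, those with alpha5 are abundant on pyramidal cell dendrites outside synapses, and those with alpha4 and delta carry tonic currents in dentate granule cells.

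The wells carried the markers of the labelled cell type and also those of other cells. Library totals ranged from 26083936 to 31844861 estimated counts per well. All 6 neuronal markers exceeded 1 TPM, a level per transcript length and depth, in every well, with summed levels of 3634 to 3838 TPM. All 6 markers of excitatory neurons, all 8 of inhibitory neurons and all 6 of astrocytes did so too. Of the granule cell markers, *Dsp* stayed under 1 TPM in every well, as did *Tmem119* and *P2ry12* of microglia, *Cldn5* of vessels and *Pdgfra*, *Cspg4* and *Sox10* of the oligodendrocyte lineage. With differences between treatments removed, replicates 1 and 2 stood apart from replicates 3 and 4 in both treatments along the first principal component (59.8% of the variance of log2 CPM, the counts scaled to library size). Summed astrocyte markers ranged from 163 to 227 TPM in replicates 1 and 2 and from 767 to 905 TPM in replicates 3 and 4, while summed markers of inhibitory neurons ranged from 4816 to 5107 TPM and from 3092 to 3825 TPM. In bulk RNA, fewer cells of a type and less RNA per cell cannot be told apart.

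The subunit genes were all transcribed in these cultures, and none of them was called changed after 4 h of MCH. Of the 7 genes, 0 passed edgeR's quasi-likelihood test at a Benjamini–Hochberg adjusted *P* value of 0.05, where 35 of the 14962 genes tested did (0.234%). At an unadjusted *P* value under 0.05 the count was 1 of 7, *Gabrb1*, against 8.5% of all genes tested. DESeq2 also called 0 of 7, against 1.08% of all genes, with 1 under the unadjusted threshold, against 7.59%. With the replicate number as a block in edgeR, 0 of 7 were called against 3.98% of all genes, and 2 of 7, *Gabrb1* and *Gabrb2*, had an unadjusted *P* value under 0.05, against 17.6%. The fitted change was upward in 3 of the 7 genes and downward in 4, with a median log2 fold change of −0.041, beside −0.0027 over all genes tested. The median size of the change, leaving out its sign, was 0.067 on the log2 scale for the 7 genes and 0.071 for all genes tested.

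**Figure D1:**
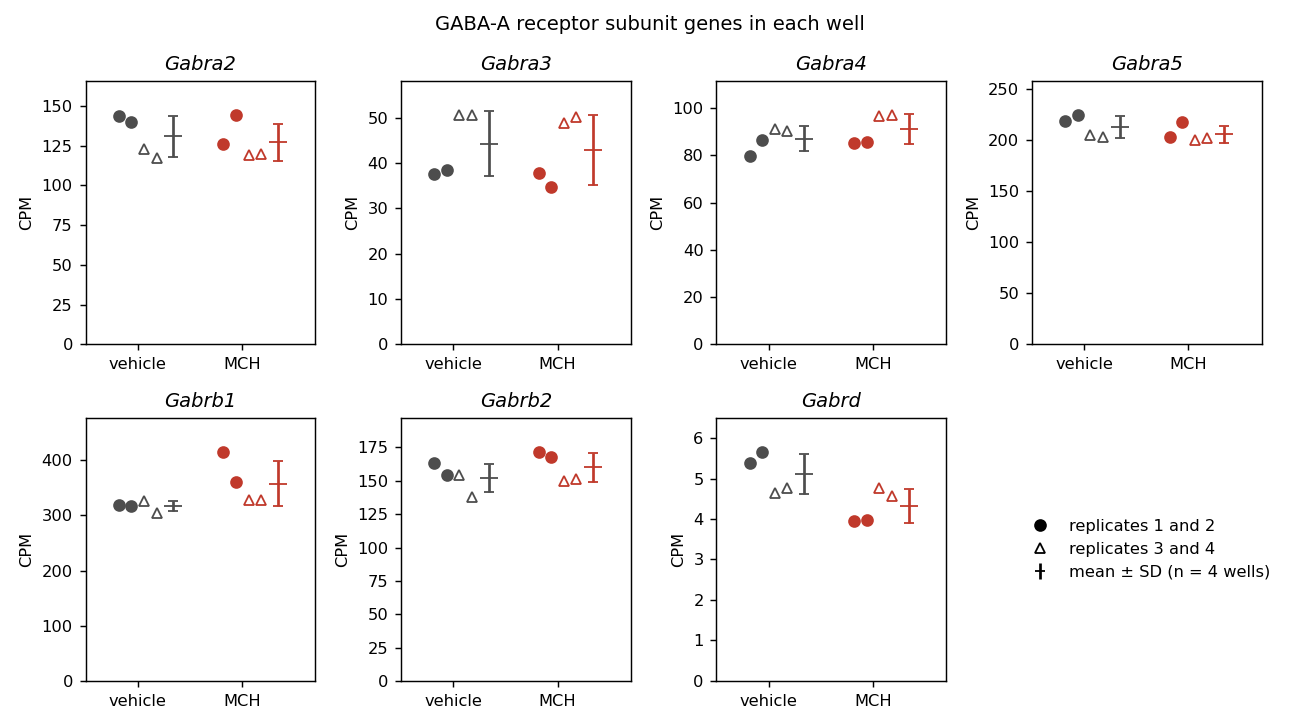
CPM of each subunit gene on axes that start at 0, with vehicle-treated wells in grey and MCH-treated wells in red, circles for replicates 1 and 2, open triangles for replicates 3 and 4, and bars for the mean ± SD of 4 wells. In *Gabrb1* all MCH-treated wells lay above all vehicle-treated wells in CPM, though not in TPM, whereas the treatments overlapped in the other 6 genes.

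Among the alpha subunits, treatments overlapped in all 4 genes. *Gabra2* (ENSMUSG00000000560, chromosome 5 of GRCm38, 70957597 to 71095849, minus strand) encodes the alpha2 subunit. Its levels in CPM were 143.6, 139.8, 122.9 and 117.4 in vehicle replicates 1 to 4 and 125.9, 144.2, 119.3 and 119.6 in the MCH replicates. Replicate 2 of MCH held the highest value and replicate 4 of vehicle the lowest. The lowest MCH value, 119.3 CPM, lay well below the highest vehicle value, 143.6 CPM, so the treatments overlapped across nearly their whole range. Means were 131 ± 12.7 CPM with vehicle and 127 ± 11.7 CPM with MCH (SD, n = 4), and the log2 fold change was −0.041 with a standard error (s.e.) of 0.082. Its adjusted *P* value was 0.987 by edgeR's quasi-likelihood test and Benjamini–Hochberg adjustment, as for all adjusted *P* values of genes here unless another fit is named. The 95% interval of the change ran from −14.5% to 10.4%. With the replicate block in edgeR the log2 fold change was −0.041 and its s.e. 0.038 (adjusted *P* = 0.632). Without vehicle replicate 1, and with no block, the fitted log2 fold change turned to 0.012.

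*Gabra3* (ENSMUSG00000031343, chromosome X, 72432681 to 72656848, minus strand) encodes alpha3, a subunit that is prominent in the immature forebrain. It gave 37.4, 38.5, 50.5 and 50.5 CPM in vehicle replicates 1 to 4 and 37.9, 34.6, 48.9 and 50.1 CPM in MCH replicates 1 to 4. In both treatments replicates 3 and 4 lay above replicates 1 and 2, and between treatments the values overlapped. Means were 44.2 ± 7.22 and 42.9 ± 7.80 CPM (SD, n = 4), with a log2 fold change of −0.046 (s.e. 0.15, adjusted *P* = 1.00). Its interval, from −24.1% to 23.7%, was the widest of the alpha subunits. With the replicate block in edgeR the log2 fold change was −0.048 and its s.e. 0.044 (adjusted *P* = 0.631). Leaving out one well at a time, with no block, gave log2 fold changes from −0.12 to 0.048, of which 4 of 8 had the opposite sign. Each of those fits left replicates 1 and 2 and replicates 3 and 4 unequally represented between the treatments.

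*Gabra4* (ENSMUSG00000029211, chromosome 5, 71569749 to 71658308, minus strand) encodes alpha4, the usual partner of delta outside synapses. Vehicle replicates 1 to 4 held 79.7, 86.6, 91.2 and 90.5 CPM and MCH replicates 1 to 4 held 85.2, 85.9, 96.5 and 96.9 CPM. The 2 highest wells were MCH replicates 3 and 4 and the lowest was vehicle replicate 1, and the treatments overlapped in between. The means of 87.0 ± 5.30 and 91.1 ± 6.45 CPM (SD, n = 4) gave a log2 fold change of 0.067 (s.e. 0.061, adjusted *P* = 0.864), with an interval from −4.78% to 15.2%.

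*Gabra5* (ENSMUSG00000055078, chromosome 7, 57407672 to 57510059, minus strand) encodes alpha5, the alpha subunit for which the hippocampus is best known. It held 219.0, 224.0, 204.6 and 203.1 CPM in vehicle replicates 1 to 4 and 202.6, 218.0, 199.4 and 202.3 CPM in MCH replicates 1 to 4. The 4 MCH-treated wells included the 3 lowest values, but MCH replicate 2 fell among the vehicle-treated wells. Means were 213 ± 10.4 and 206 ± 8.40 CPM (SD, n = 4), with a log2 fold change of −0.049 (s.e. 0.046, adjusted *P* = 0.867). The interval of *Gabra5*, from −0.15 to 0.054 on the log2 scale, was the narrowest among the 7 genes.

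Of the beta subunits, *Gabrb1* had the lowest *P* value of the 7 genes, and in *Gabrb2* the treatments overlapped. *Gabrb1* (ENSMUSG00000029212, chromosome 5, 71658113 to 72149037, plus strand) encodes beta1. Its values were 319.1, 317.8, 327.0 and 305.3 CPM in vehicle replicates 1 to 4 and 415.0, 360.0, 328.4 and 328.2 CPM in MCH replicates 1 to 4. In CPM the treatments did not overlap, although MCH replicates 3 and 4 stood only just above vehicle replicate 3. MCH replicate 1 stood well above every other well. Of all genes tested, 3.07% had all 4 MCH-treated wells above all 4 vehicle-treated wells in CPM. In TPM the treatments overlapped in *Gabrb1*. There MCH replicates 3 and 4, at 54.4 and 55.8 TPM, lay below vehicle replicates 2 and 3, at 56.3 and 57.1 TPM. Means were 317 ± 9.0 CPM with vehicle and 358 ± 40.9 CPM with MCH (SD, n = 4). The log2 fold change was 0.17 with an s.e. of 0.072 (adjusted *P* = 0.554, unadjusted *P* = 0.0380). The unadjusted 95% interval ran from 0.823% to 26.2% higher. Without MCH replicate 1 the fitted change was 0.098 on the log2 scale, and it was 0.13 in the edgeR fit with an offset for mean transcript length.

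*Gabrb2* (ENSMUSG00000007653, chromosome 11, 42419757 to 42629028, plus strand) encodes beta2, a common subunit of synaptic receptors in the adult brain. Vehicle replicates 1 to 4 gave 163.2, 154.2, 154.2 and 137.6 CPM and MCH replicates 1 to 4 gave 171.6, 167.7, 150.2 and 151.4 CPM. The 2 highest wells were MCH replicates 1 and 2, while MCH replicates 3 and 4 lay within the vehicle range. The means of 152 ± 10.7 and 160 ± 11.0 CPM (SD, n = 4) gave a log2 fold change of 0.073 (s.e. 0.063, adjusted *P* = 0.847), with an interval from −4.65% to 16.1%. With the replicate block the log2 fold change was also 0.073 and its s.e. 0.034 (adjusted *P* = 0.268).

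The delta subunit was the scarcest of the 7 and had the lowest fitted fold change. *Gabrd* (ENSMUSG00000029054, chromosome 4, 155384980 to 155398112, minus strand) rested on 106 to 156 estimated counts per well, where *Gabrb1* had 8217 to 12992. It gave 5.38, 5.65, 4.65 and 4.76 CPM in vehicle replicates 1 to 4 and 3.96, 3.98, 4.77 and 4.56 CPM in MCH replicates 1 to 4. MCH replicates 1 and 2 were the lowest wells and vehicle replicates 1 and 2 the highest, and replicates 3 and 4 of both treatments lay close together between them. Means were 5.11 ± 0.484 and 4.32 ± 0.413 CPM (SD, n = 4). The fitted change was −0.24 on the log2 scale with an s.e. of 0.12 (adjusted *P* = 0.633), and its interval ran from −0.51 to 0.024. With an offset for mean transcript length in edgeR it was −0.16.

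**Figure D2:**
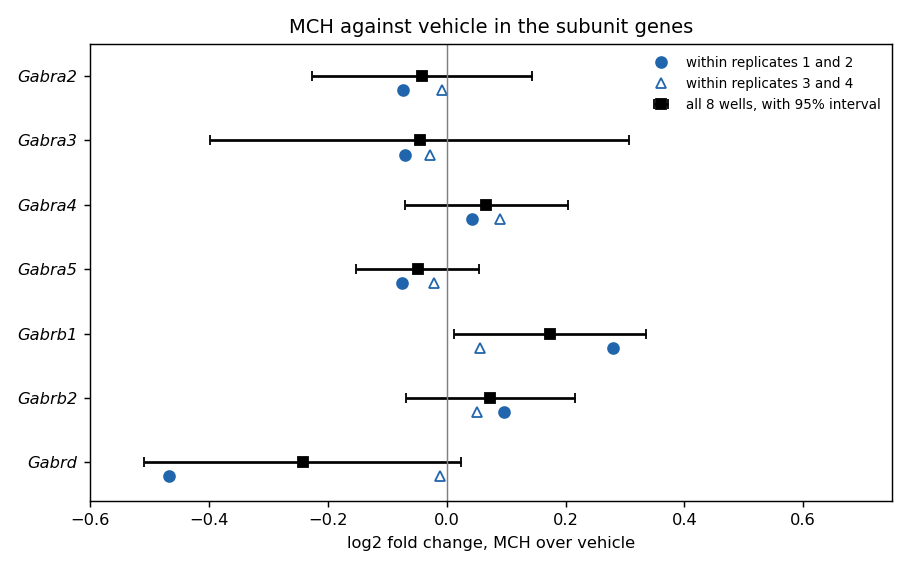
Log2 fold change of MCH over vehicle for each subunit gene, with squares and 95% bars for the fit to all 8 wells, and, just under them, circles for the difference of mean log2 CPM in replicates 1 and 2 and open triangles for that in replicates 3 and 4. Only the bar of *Gabrb1* leaves out 0, from 0.012 to 0.34 without adjustment, and the circles and triangles lie farthest apart in *Gabrd* and *Gabrb1*.

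The differences in *Gabrb1* and *Gabrd* were mainly in replicates 1 and 2. In *Gabrb1* the mean log2 CPM with MCH was higher by 0.28 within replicates 1 and 2 and by 0.055 within replicates 3 and 4. In *Gabrd* it was −0.47 relative to vehicle in replicates 1 and 2, and −0.011 in replicates 3 and 4. The other 5 genes had within-pair differences between −0.076 and 0.096, with the same sign in both pairs of replicates. A test of the interaction of treatment with this division of the wells called 0 of the 7 genes, against 0.0267% of all genes tested, with edgeR's quasi-likelihood test. It gave adjusted *P* = 0.595 for *Gabrb1* and adjusted *P* = 0.643 for *Gabrd*. The division was itself read from these counts, which limits what the *P* values of this interaction measure. At an unadjusted *P* value under 0.05 the interaction picked 2 of 7, these same genes, against 7.6% of all genes, and DESeq2 called 0, against 0.0602%, with 1 under the unadjusted threshold, against 3.62%.

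Apart from treatment, replicates 3 and 4 differed from replicates 1 and 2 in several subunit genes. Because the division was read from the counts themselves, this difference is described without a test. *Gabra3* moved most, from 37.1 ± 1.74 CPM in replicates 1 and 2 to 49.98 ± 0.748 CPM in replicates 3 and 4 (SD, n = 4 wells of both treatments), 1.35 times as high. *Gabra4* was also higher, at 84.3 ± 3.16 and 93.8 ± 3.38 CPM. In these 2 of 7 genes, replicates 3 and 4 lay wholly above replicates 1 and 2, as in 16.6% of all genes tested.

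In another 2 of 7, replicates 3 and 4 lay wholly below, as in 13% of all genes. *Gabra2* went from 138 ± 8.56 to 120 ± 2.30 CPM and *Gabrb2* from 164 ± 7.45 to 148 ± 7.37 CPM, the latter with vehicle replicates 2 and 3 nearly touching. *Gabra5*, *Gabrb1* and *Gabrd* overlapped. The median difference, leaving out its sign, was 0.15 on the log2 scale for the 7 genes and 0.12 for all genes tested. The marker sums moved along the same division, with those of neurons, excitatory neurons and inhibitory neurons lower in replicates 3 and 4, and those of granule cells, astrocytes, the oligodendrocyte lineage, microglia, and fibroblasts and vessels higher. Granule cell markers summed to 47.7 to 58.6 TPM in replicates 1 and 2 and to 63.2 to 75.8 TPM in replicates 3 and 4, with *Dsp* under 1 TPM throughout. The oligodendrocyte lineage gave 35.9 to 41.8 and 93.1 to 113 TPM, and fibroblasts and vessels 14.7 to 20.6 and 46.5 to 48.8 TPM. The part of these cells in the differences of the subunit genes was not tested.

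**Figure D3:**
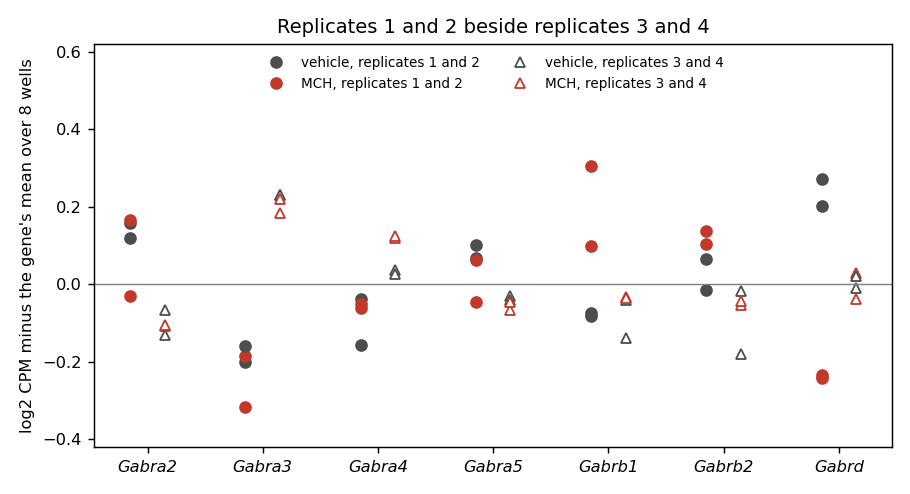
Log2 CPM of each subunit gene in every well minus the mean of that gene over the 8 wells, with replicates 1 and 2 to the left as circles and replicates 3 and 4 to the right as open triangles, in grey for vehicle and red for MCH. *Gabra3* and *Gabra4* stand higher and *Gabra2* and *Gabrb2* lower on the right, while *Gabrd* spreads by treatment only on the left.

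Across the 8 wells the 7 genes did not vary as one group. Log2 CPM of *Gabra2* followed *Gabra5* (Pearson *r* = 0.93) and ran against *Gabra3* (*r* = −0.89) and *Gabra4* (*r* = −0.80). *Gabra3* and *Gabra4* ran together (*r* = 0.81), as did *Gabrb1* and *Gabrb2* (*r* = 0.78), while *Gabrb1* and *Gabrd* ran against each other (*r* = −0.76). These correlations describe 8 wells that share cultures and the division above, and carry no test.

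The genes most like each subunit gene were sought among 10916 or 10917 other genes with a mean of at least 5 CPM, by the same measure over 8 wells. *Gabra3* had the most close matches, with 724 genes above *r* = 0.9, led by *Gldc*, *Smo* and *Igfbp5* (*r* = 0.997, 0.996 and 0.996). *Gabrd* had the fewest, with 16 above 0.9, led by *Snrpa1*, *Rnft1* and *Fkbp4* (*r* = 0.95, 0.95 and 0.95). The other 5 genes had between 108 and 167 such matches.

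For *Gabra2* the nearest were *Gemin2*, *Gm6710* and *Spock2* (*r* = 0.98, 0.97 and 0.97). For *Gabra4* they were *Zfp759*, *Car12* and *Crhr1* (*r* = 0.99, 0.97 and 0.96), and for *Gabra5* they were *Kctd6*, *Cnot7* and *Ndrg4* (*r* = 0.98, 0.97 and 0.97). *Gabrb1* was nearest to *Prrc2b*, *Nav3* and *Cacna1b* (*r* = 0.98 for each). *Gabrb2* was nearest to *Nyap2*, *Synj1* and *Nup210* (*r* = 0.99, 0.98 and 0.97). No other subunit gene was among these nearest matches.

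Levels of different genes can be set side by side only per length, which the deposited TPM values allow once summed over the transcripts of a gene. *Gabra5* was the most abundant of the 7, with 149 ± 6.12 TPM in vehicle-treated and 147 ± 5.66 TPM in MCH-treated wells (SD, n = 4). *Gabrb2* followed with 69.8 ± 5.02 and 74.2 ± 5.39 TPM, *Gabra2* with 61.5 ± 3.96 and 60.4 ± 4.31 TPM, and *Gabrb1* with 53.6 ± 3.93 and 59.3 ± 5.97 TPM. *Gabra4* had 43.9 ± 3.55 and 46.4 ± 4.29 TPM, *Gabra3* 29.5 ± 6.28 and 29.0 ± 4.46 TPM, and *Gabrd* 5.07 ± 0.440 and 4.60 ± 0.615 TPM. These sums take in transcripts not annotated as coding. In *Gabra2* the only coding transcript held 32.4% of the gene's TPM on average, so its place in this order rests largely on the others.

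*Gabra5* stood apart from the next gene, with a lowest well of 142 TPM against a highest well of 79.5 TPM for *Gabrb2*. From *Gabrb2* through *Gabra2* and *Gabrb1* to *Gabra4*, each gene overlapped its neighbour in the order over the 8 wells. *Gabra4* and *Gabra3* did not overlap, at 40.7 TPM or more and 37.9 TPM or less, and *Gabrd*, at 5.55 TPM or less, stood apart from all the others. By its mean TPM *Gabra5* exceeded 91.5% of the genes tested and *Gabrd* exceeded 27.9%.

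**Figure D4:**
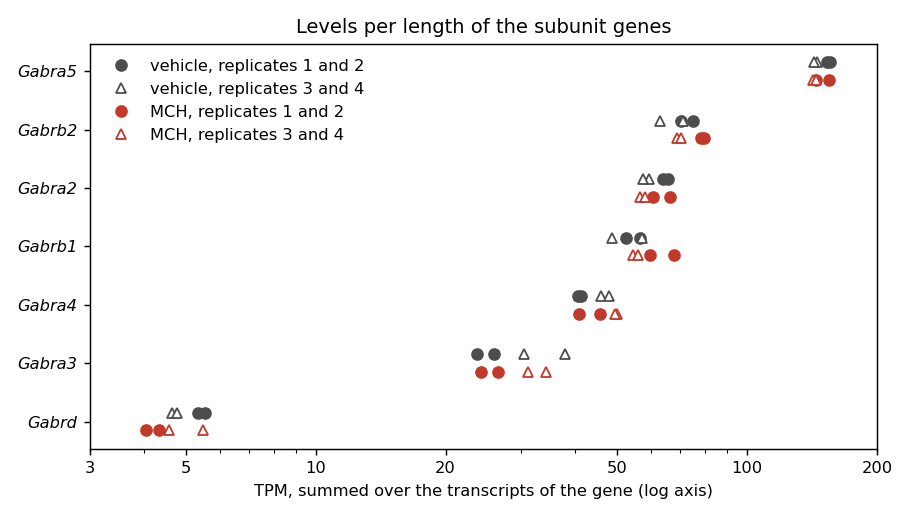
TPM of each subunit gene, summed over its transcripts, on a log axis, with one point per well (grey for vehicle, red for MCH, circles for replicates 1 and 2, open triangles for replicates 3 and 4). *Gabra5* sits above 142 TPM in every well and *Gabrd* below 5.55 TPM, with the other 5 genes between 23.7 and 79.5 TPM.

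Together the 7 genes summed to 413 ± 12.1 TPM with vehicle and 420 ± 9.44 TPM with MCH (SD, n = 4). That was 49.6% ± 1.23 and 49.9% ± 0.745 of the summed TPM of 19 annotated GABA-A subunit genes, these 7 and 12 others. *Gabra5* alone made up 17.9% ± 0.453 of that sum with vehicle and 17.4% ± 0.699 with MCH. *Gabrd* made up 0.609% ± 0.0413 and 0.548% ± 0.0887, and *Gabrb1* 6.44% ± 0.415 and 7.02% ± 0.472. The mean share of no subunit gene of the 7 differed between treatments by 2 SD or more of either treatment.

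At the level of annotated transcripts, 25 belonged to the 7 genes, 16 of them passed the filter and 0 were called with edgeR's quasi-likelihood test, as for all 33527 transcripts tested (0%). At an unadjusted *P* value under 0.05 there were 0 of the 16, against 4.4% of all transcripts. DESeq2 called 0 of the 16, against 0.802%, with 2 under the unadjusted threshold, against 7.19%. In 6 of the 7 genes a single transcript held over 90% of the reads on average. *Gabra5* has 1 annotated transcript in the table, and *Gabrb2-201* held 99.4% of its gene's reads, *Gabrb1-201* 98.6%, *Gabrd-201* 95.5%, *Gabra4-201* 91.8% and *Gabra3-201* 91.6% on average over the 8 wells. In shares of TPM, which correct for length, shorter transcripts weighed more, and the same transcripts held 98.1% in *Gabrb2*, 94.6% in *Gabrd*, 79.9% in *Gabra4*, 74.4% in *Gabrb1* and 68.2% in *Gabra3*. *Gabrb1-201* is 13737 bases long, so *Gabrb1* led the 7 genes in CPM but ranked below *Gabra5*, *Gabrb2* and *Gabra2* in TPM.

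The reads of *Gabra2* were spread more widely. Its coding transcript of 5852 bases, *Gabra2-203*, held 50.9% ± 1.42 of the reads with vehicle and 50.3% ± 0.952 with MCH (SD, n = 4). *Gabra2-204*, 3867 bases long and annotated as a target of nonsense-mediated decay, held 37.5% ± 3.35 and 37.9% ± 1.24. In shares of TPM *Gabra2-204* stood above *Gabra2-203*, at 37.5% and 32.4% on average. *Gabra2-201*, also annotated as a target of nonsense-mediated decay, held 16.7%. The retained-intron transcript *Gabra2-202*, which was chosen after its values were seen, had 79.7 and 86.5 estimated reads in MCH replicates 1 and 2 and between 10.8 and 25.1 in the other 6 wells. It held 0.550% ± 0.107 of the gene's reads with vehicle and 1.33% ± 0.951 with MCH (SD, n = 4), with 2.25% in the highest well. The transcript was not called (log2 fold change 1.31, s.e. 0.64, adjusted *P* = 1.00 with edgeR, adjusted *P* = 0.661 with DESeq2).

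**Figure D5:**
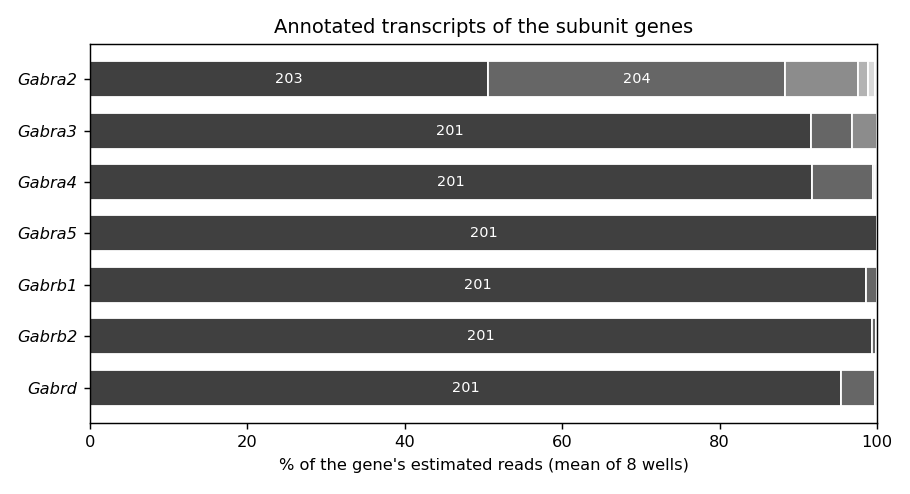
Share of each gene's estimated reads on its annotated transcripts, as stacked bars of the mean over 8 wells in percent, with the transcript number written on those that hold at least 10%. Only *Gabra2* has a second transcript over 10%, *Gabra2-204* with 37.7%, beside *Gabra2-203* with 50.6%.

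*Gabra2*, *Gabra4* and *Gabrb1* lie in one cluster on chromosome 5. The annotated ends of *Gabra4* and *Gabrb1*, on opposite strands, overlap by 196 bases at their 5′ ends. *Gabra5* shares its interval with opposite-strand genes, among them *Gm9962*, an antisense gene of at most 1.37 CPM. The libraries were stranded, but whether the counting used strand is not given in the sources used here. The fitted changes of *Gabra4* and *Gabrb1* were 0.067 and 0.17 on the log2 scale. RefSeq promoter windows on GRCm38.p6, from 250 bases before to 50 bases after a transcription start, were at hand for 6 of the 7 genes, not for *Gabrd*. Taking a single window per gene, GC content ranged from 43% in *Gabra3* to 70% in *Gabra2*, beside a median of 52.7% over all windows. *Gabra3* and *Gabrb1* have 2 windows each and *Gabrb2* has 3, so this range covers only a part of their windows.

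The 60 bases before a RefSeq start are given for *Gabra2* and *Gabra3*, picked because their windows had the highest and lowest GC content above. They lie at chr5:71095850-71095909 for *Gabra2* and chrX:72656920-72656979 for *Gabra3*, both read 5′ to 3′ on the minus strand. A link between base composition and the levels of these genes was not tested.
Gabra2: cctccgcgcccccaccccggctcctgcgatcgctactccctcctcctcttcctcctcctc
Gabra3: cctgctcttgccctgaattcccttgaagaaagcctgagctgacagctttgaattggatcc
Of these 60 bases, 71.7% were G or C in *Gabra2* and 50% in *Gabra3*.

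The windows were searched on both strands for 3 motifs of activity-regulated transcription factors, the cAMP response element (TGACGTCA), the AP-1 site (TGANTCA) and the EGR site (GCGNGGGCG). The first was found in 1.79% of all 32851 windows, the second in 7.81% and the third in 5.55%. None of the 10 windows of the subunit genes held the first or the second. The EGR letters were found in 2 of the 10 windows, 1 of *Gabrb1* and 1 of *Gabrb2*. There were 2 matches in *Gabrb1*, at positions 8 and 24 relative to the RefSeq start, and 1 in *Gabrb2*, at −232. Those RefSeq starts, 71657921 for *Gabrb1* and 42420440 for *Gabrb2*, differ from the annotated gene starts given above, 71658113 and 42419757. By the gene intervals given above, the *Gabrb1* matches lie before *Gabrb1* and within *Gabra4*, and the *Gabrb2* match lies inside *Gabrb2*. The matches are shown in capitals, as the reverse complement of the letters searched, with the bases around them on the plus strand.
Gabrb1, chr5:71657919-71657948: cgctcacactCGCCCGCGCtcacactcgcc
Gabrb1, chr5:71657935-71657964: cgctcacactCGCCCGCGCtcctccagcct
Gabrb2, chr11:42420198-42420227: ccccgcaaccCGCCCTCGCactggatgcct
A match of letters is a description of the window and not a site shown to be used.

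Genes that act with these subunits were described from 4 lists, chosen with earlier results of these data known. Of 12 other GABA-A subunit genes 8 were tested, and the rest reached at most 11 counts in a well. With edgeR's quasi-likelihood test 0 of the 8 were called, 3 had a fitted change upward and 5 downward, and 0 had an unadjusted *P* value under 0.05 with edgeR or DESeq2. Their median log2 fold change was −0.035. *Gabrr1*, a rho subunit, had the highest at 0.12 (s.e. 0.18, adjusted *P* = 0.955), and *Gabre*, the epsilon subunit, the lowest at −0.58 (s.e. 0.52, adjusted *P* = 0.857), on at most 1.09 CPM.

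Of 23 genes of the inhibitory synapse and of receptor trafficking, 0 were called, 17 had a fitted change upward and 6 downward, and the median log2 fold change was 0.0088. With DESeq2 size factors or upper quartile factors, 18 rather than 17 were upward. At an unadjusted *P* value under 0.05 there were 3 with edgeR and 3 with DESeq2, against 8.5% and 7.59% of all genes tested. *Slitrk3*, a postsynaptic adhesion protein of inhibitory synapses, was highest, with 90.3 ± 4.24 CPM in vehicle-treated and 106 ± 7.20 CPM in MCH-treated wells (SD, n = 4). All its MCH-treated wells lay above all vehicle-treated wells, as in 3.07% of all genes tested. In *Zdhhc3* and *Clptm1* of this list all MCH-treated wells lay below, a direction whose share over all genes was not counted. *Slitrk3* had a log2 fold change of 0.23 (s.e. 0.055, adjusted *P* = 0.211). DESeq2 (adjusted *P* = 0.0336) and edgeR with the replicate block (adjusted *P* = 0.000698) called it and no other gene of the list. Those fits called 1.08% and 3.98% of all genes tested. *Zdhhc3*, which palmitoylates receptor subunits, was lowest at −0.11 (s.e. 0.034, adjusted *P* = 0.370).

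Of 9 genes of GABA synthesis, transport and breakdown and of the GABA-B receptor, 0 were called, 3 had a fitted change upward and 6 downward, with a median of −0.034 and 0 under an unadjusted *P* value of 0.05 with edgeR or DESeq2. *Gad1*, which makes GABA from glutamate and also stands in the list of inhibitory neuron markers, was lowest at −0.099 (s.e. 0.060, adjusted *P* = 0.733). *Slc6a11*, the GABA transporter GAT-3 of astrocytes, was highest at 0.15 (s.e. 0.15, adjusted *P* = 0.886). With the replicate block in edgeR both were called (adjusted *P* = 0.0349 and 0.0239), as were 3.98% of all genes tested.

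All 8 chloride carriers and channels had a fitted change upward, with a median log2 fold change of 0.066 beside −0.0027 over all genes, and all 8 stayed upward with DESeq2 size factors and with upper quartile factors. Of these, 0 were called with edgeR's quasi-likelihood test and 0 with DESeq2. Each tool had 1 under an unadjusted *P* value of 0.05, against 8.5% of all genes with edgeR and 7.59% with DESeq2. *Slc12a7* was highest at 0.28 (s.e. 0.54, adjusted *P* = 0.986), on 1.12 to 5.81 CPM, and *Slc4a3* lowest at 0.0047 (s.e. 0.036, adjusted *P* = 1.00). The gene under the threshold, named after its value was seen, was *Slc4a8*, a bicarbonate and chloride exchanger, at 85.8 ± 5.47 CPM with vehicle and 101 ± 8.10 CPM with MCH (SD, n = 4). It had a log2 fold change of 0.23 (s.e. 0.065, adjusted *P* = 0.303). With the replicate block in edgeR it was called (adjusted *P* = 0.000601), as were 3.98% of all genes tested.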

How the data were processed

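Poly-A RNA of 8 wells was sequenced from stranded libraries. On GRCm38, the authors ran the nf-core/rnaseq pipeline with salmon as quantifier. They deposited estimated counts per gene, not normalized, and, for each transcript, estimated counts and TPM. The submitters' processing notes name R 4.0.3 and DESeq2 1.13.0 for their own comparison. Identifiers were named with GENCODE vM21 on GRCm38 (45143 of 45706 genes), which may differ from the authors' annotation.

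Treatment and replicate came from the sample labels. Estimated counts were rounded and tested in R 4.3.3 with edgeR 4.0.16: TMM factors, filterByExpr (count minimum 10, total minimum 15), robust quasi-likelihood fits with no block, and Benjamini–Hochberg adjustment over all genes tested, threshold 0.05. CPM are TMM-scaled, correlations use log2 CPM with a prior count of 2, and intervals are 95% intervals of single genes. DESeq2 1.42.0 and limma voom 3.58.1, other normalizations, filters and length offsets, and leaving out each well were alternatives. Tests were tried on simulated data.

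Replicate numbers are shared by the treatments. Once treatment means were subtracted, log2 CPM correlated at 0.445 to 0.545 within each same-numbered pair, which meets the rule used for pairing (over 0.1 in every pair). Wells of one side with different numbers correlated as highly, at 0.475 to 0.521, so these values do not tell the number from the side, and neither labels nor paper say what a number marks. The side of a well (replicates 1 and 2, or 3 and 4) is the sign of the first principal component.

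The 7 genes and all lists were chosen with earlier results of these data known. Genes named are the 7 members, list genes that pass the test, the highest and lowest log2 fold change of each list, transcripts with at least 10% of a gene's reads, and the 3 genes most correlated with each member at a mean of at least 5 CPM. Promoter sequences are RefSeq's, on GRCm38.p6. Protein sequences were not used here.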

Additional observations from a re-analysis of the deposited data

Results flagged for a closer look

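*Gabra5* in MCH replicate 2, at 218.0 CPM, stood apart from MCH replicates 1, 3 and 4, which lay between 199.4 and 202.6 CPM. The gap to the nearest well was 0.832 of the range of the 4 wells, just above Dixon's critical value for 4 samples. It was the 1 sample picked among 42 groups examined, where chance picks about 1 group in 20. In the vehicle-treated wells the values of *Gabra5* ran from 203.1 to 224.0 CPM, so the value lay within them.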

How the results depend on the processing

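Under all 10 alternatives in tool, block, normalization, filter and length, 0 of the 7 subunit genes were called, and each kept the sign of its fitted change. The lowest adjusted *P* value was 0.229, for *Gabrb1* with the side block. When single wells were left out, with no block, 0 of 7 were again called. Log2 fold changes then ran from −0.10 to 0.012 for *Gabra2* and from −0.12 to 0.048 for *Gabra3*, the genes whose sign turned, from 0.033 to 0.10 for *Gabra4*, from −0.074 to −0.018 for *Gabra5*, from 0.098 to 0.22 for *Gabrb1*, from 0.032 to 0.11 for *Gabrb2* and from −0.29 to −0.19 for *Gabrd*. The cause was not tested.

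Over all genes, 35 were called, against 596 with the replicate block, 668 with the side block, 162 with DESeq2, 129 with DESeq2 and a length offset, 7 with a length offset in edgeR and 4 to 29 with a well left out. Of the transcripts 0 were called, against 6 with the side block, 269 with DESeq2 and 0 to 1 with a well left out. The interaction called 4 genes, against 9 with DESeq2, 266 without a filter and 3 to 277 with a well left out, the highest without MCH replicate 2. The replicate block changed no other call among the 7 subunit genes and the list genes named than those given beside the results. CPM per kb of effective length is not scaled to a fixed total as TPM is, so the 2 units differ in size. The values in CPM per kb were lower for every subunit gene, with *Gabra5* at 87.0 instead of 148. The order of the genes stayed the same. *Gabrd* rests on 106 to 156 counts per well, the fewest of the 7.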
